A study of Sus scrofa with 12 samples.

Results

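Maternal mRNA storage and repression proteins are RNA-binding and cap-binding proteins that act on the stored messages of an oocyte. Many of them keep those messages from being translated or broken down, whereas DAZL, listed with them, is an activator of translation. The 9 genes considered here were listed by name for their roles in the oocyte messenger ribonucleoprotein, with no threshold on their values, although earlier results of these data were known when the list was made: ZAR1, ZAR1L, YBX2, LSM14B, PATL2, EIF4ENIF1, EIF4E1B, DAZL and PABPC1L. Each library lists 31908 genes by Ensembl identifier. Of the 9 genes, 7 could be matched to an identifier by symbol, while PATL2 and DAZL could not be matched, and their levels are not analysed here. Averaged across all 12 libraries, 6 of the 7 reached 1 FPKM and were tested, and LSM14B stayed under that level. FPKM relates the fragments of a gene to the length of its transcript and to the fragments of the library, so values of different genes are compared per length.

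The oocytes came from antral follicles of the ovaries of prepubertal gilts, collected at a slaughterhouse. Cumulus-oocyte complexes were matured in vitro in a TCM199-based medium with porcine follicular fluid, epidermal growth factor, PMSG and HCG, and the oocytes were then stripped of cumulus cells. RNA of 20 pooled oocytes per library was amplified by the SMART-Seq2 method, in which cDNA starts at the poly(A) tail. The groups are 0h (germinal vesicle stage), 22h (before metaphase I) and 46h (metaphase II) of maturation, with 4 libraries each, and they differ by the time in culture alone as far as the labels say. The labels name the samples as ovarian cells and give hours without a stage. That they were oocytes is stated by the paper, which for the stages refers to an earlier study of its authors. In that study a part of the oocytes was not at the named stage, and its later times were not those used here. The design text deposited with the series gives the middle point as 24h, whereas the labels give 22h. No group carries a genetic change, and nothing in the labels ties the libraries to separate animals or cultures, so the p-values measure the spread between these libraries only. With a primer on the tail, fewer molecules of a transcript and a shorter tail cannot be told apart for any gene. The same holds for more molecules and a longer tail. Fewer intact oocytes and less RNA per oocyte cannot be told apart either, but FPKM is scaled to each library, so a loss shared by all transcripts would largely cancel. By the same scaling, a higher FPKM can follow from the loss of other transcripts and need not mean more molecules.

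A fully grown oocyte is almost silent in transcription, and its proteins during maturation are made from mRNA that was stored while it grew. Stored messages are held with short tails in ribonucleoprotein particles, in which proteins on the mRNA and on the cap-binding factor block initiation. Maturation releases selected messages by lengthening their tails and removes others. ZAR1 and its relative ZAR1L are zinc-finger proteins that bind maternal mRNA, and YBX2 (MSY2) is the germ-cell cold-shock protein that coats and stabilizes it. LSM14B and PATL2 belong to the repression particle, EIF4ENIF1 holds the cap-binding protein away from the initiation complex, EIF4E1B is an oocyte form of that cap-binding protein, DAZL is a germ-cell activator of translation and PABPC1L (ePAB) is the embryonic poly(A)-binding protein.

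Since the libraries were primed at the tail, the 3′ ends of the measured transcripts are shown first. They were read from the RefSeq annotation of the Sscrofa11.1 assembly, as the final 100 bases of the longest transcript of each gene, on the sense strand only. Each line gives 30 bases, 5′ to 3′, and the capitals mark the polyadenylation signal AATAAA or ATTAAA or, for YBX2, the element TTTTAT, a form of the cytoplasmic polyadenylation element.
ZAR1: acaaagctgtcaAATAAAagcattgcaaaa
ZAR1L: cgaatagaatgaAATAAAtgcatgtgaaat
YBX2: cctctgaagccaTTTTATgaaccgtcatgt
LSM14B: cttgtaattacaAATAAAcatgcaaacctt
EIF4ENIF1: ttcttttggttgATTAAAgttgcatatgca
EIF4E1B: gtacctattctaAATAAAtacttttaaaca
These windows lie in the annotated 3′ untranslated regions, and their positions are chr8:38391577-38391606 on the plus strand for ZAR1, chr11:8795481-8795510 on the minus strand for ZAR1L and chr12:52635427-52635456 on the minus strand for YBX2. The window of LSM14B is chr17:61564401-61564430 on the plus strand, that of EIF4ENIF1 is chr14:48156850-48156879 on the minus strand and that of EIF4E1B is chr2:81277459-81277488 on the minus strand. A signal was found in 6 of the 8 genes with an annotated end, DAZL among them, against 77.4% of the 5654 tested genes with an annotated end. The elements TTTTAT or TTTTAAT, which can overlap each other or a signal in a longer run of bases, were found in 1 of the 8, YBX2, at 62 bases before its end, against 22.0% of those genes. The end annotated for PABPC1L held neither. An absent match says only that these letters are not in the window of that annotated transcript, and the ends used in the oocyte were not measured.

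**Figure D1:**
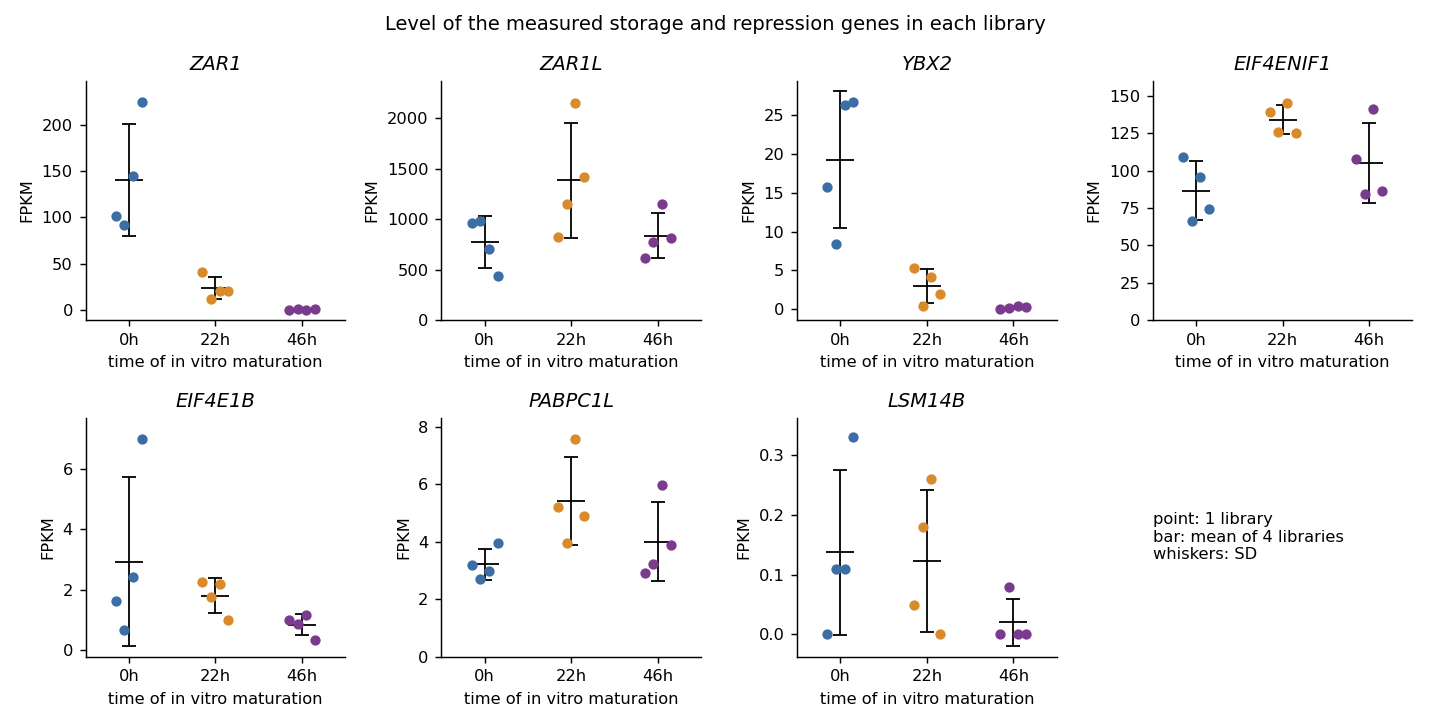
Level of 7 genes (FPKM, vertical axis, separate scale for each gene) in each of the 12 libraries by time of in vitro maturation; points are libraries, the bar is the mean of 4 libraries and the whiskers are the SD. ZAR1 and YBX2 step down at 22h and again at 46h with no overlap between stages, while the other 5 genes overlap in at least part of the comparisons.

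The 12 libraries were first checked as oocytes. Of 14 oocyte markers 12 were matched, and all 12 averaged 1 FPKM or more at 0h and 22h, as did 11 at 46h, with NOBOX at 0.235 FPKM there. Their summed level lay between 20450 and 29550 FPKM in the 0h libraries, between 26150 and 42850 in those of 22h and between 13810 and 20660 in those of 46h. At 46h against 0h 8 of the 12 were lower and 1 was higher (limma adjusted p under 0.05 and a fold change over 1.5), beside 39.1% lower and 16.8% higher of all genes tested. The higher call was lost with the replicate block, TPM, quantile normalization, no filter on low values or a fold change over 2. It was also lost without 0h replicate 2, 3 or 4 and without 46h replicate 2, 3 or 4. Without 0h replicate 4, 9 markers were lower. The mean level at 46h was lower than at 0h by 26.1-fold for GDF9, 31.1-fold for ZP3, 37.5-fold for FIGLA and 39.4-fold for NOBOX, and OOEP went from 1473 to 123 FPKM, so these oocyte markers moved in the direction of ZAR1 and YBX2, whereas H1-8, the oocyte linker histone, averaged 4154 FPKM at 0h and 4821 at 46h and did not pass. Single libraries weigh on the folds of NOBOX and ZP3. NOBOX was at 23.87 FPKM in 0h replicate 4 and at 1.8 to 7.05 in the other 0h libraries, so its fold is smaller without that library. ZP3 was at 199.29 FPKM in 46h replicate 3 and at 51.51 to 71.68 in the other 46h libraries, so its fold is larger without that library. Among 18 matched cumulus and granulosa markers, 14 were under 0.2 FPKM on average at each stage, and FSHR and INHA, which define those cells, were listed at or near 0, which in these files is not read as absence. Their summed level lay between 47.1 and 89.4 FPKM in the 0h libraries, between 56.5 and 86.8 in those of 22h and between 118 and 144 in those of 46h, and most of it was VCAN, a matrix proteoglycan. The share of FPKM in mitochondrially encoded genes rose with the stages, from 1.79% to 3.76% at 0h over 8.06% to 12.02% at 22h to 12.8% to 16.7% at 46h. The number of genes with 1 FPKM or more went the other way, with 6939 to 7895 in the 0h libraries, 6682 to 7135 in those of 22h and 5819 to 6076 in those of 46h. The endothelial markers summed to between 7.71 and 10.9 FPKM in the 0h libraries and to between 21.0 and 23.6 in those of 46h, nearly all of it PECAM1, while CDH5, which defines endothelium, was listed at 0 in every library. The part of these shifts in the results below was not tested, apart from the fit without the mitochondrially encoded genes. Libraries of a stage correlated at r = 0.934 to 0.989 across genes, and 0h replicate 4 had the lowest mean correlation with its stage, 0.950. It also held the highest 0h values of ZAR1, YBX2, EIF4E1B, PABPC1L and LSM14B and the lowest of ZAR1L, so for several genes the values without it are given below.

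ZAR1L was the most abundant of the measured genes at every stage, and ZAR1 and YBX2 changed most. On mean FPKM, the order at 0h was ZAR1L, ZAR1, EIF4ENIF1, YBX2, PABPC1L, EIF4E1B and LSM14B. The ranges of ZAR1 and EIF4ENIF1 overlapped there, as did those of PABPC1L and EIF4E1B. At 22h EIF4ENIF1 stood above ZAR1 with no overlap, and YBX2 had come down to the level of PABPC1L and EIF4E1B. At 46h ZAR1 overlapped EIF4E1B, YBX2 overlapped LSM14B, and ZAR1L, EIF4ENIF1 and PABPC1L held the first 3 places without overlap between neighbours. The 7 genes together made up 0.140% ± 0.0323 (SD, n = 4) of total FPKM at 0h, 0.211% ± 0.0871 at 22h and 0.119% ± 0.0311 at 46h. ZAR1L alone took between 56.6% and 85.3% of that sum in the 0h libraries, between 80.9% and 92.3% in those of 22h and between 84.5% and 89.9% in those of 46h.

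Within the 6 tested genes, 3 passed at 22h against 0h, where EIF4ENIF1 was higher and ZAR1 and YBX2 were lower. A gene passed with an adjusted p under 0.05 and a fold change over 1.5 in the limma fit, and 26.7% of the 7013 genes tested did so in that comparison (7.84% higher, 18.9% lower). Without 0h replicate 4, 2172 genes passed there and 862 of them were higher, in place of 1873 and 550 with all libraries. At 46h against 22h, and at 46h against 0h, 2 of the 6 passed, ZAR1 and YBX2, both lower. The background was 42.4% at 46h against 22h (9.87% higher, 32.6% lower) and 55.9% at 46h against 0h (16.8% higher, 39.1% lower), so a count of 2 of 6 lies close to or under the share of all genes. The median log2 fold change of the 6 genes was 0.16, -0.64 and -0.36 in the 3 comparisons, beside -0.00, -0.26 and -0.25 over all genes tested. The comparisons share their libraries and are not independent of each other.

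**Figure D2:**
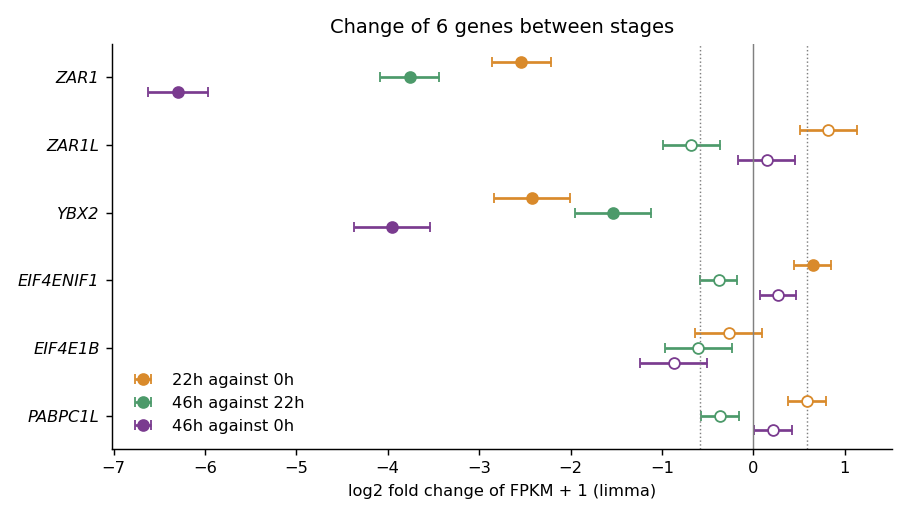
Log2 fold change of FPKM + 1 (horizontal axis, limma) of the 6 tested genes in the 3 comparisons; bars are standard errors, filled points passed both thresholds and dotted lines mark a fold change of 1.5. ZAR1 and YBX2 are filled and left of 0 in all 3 comparisons, and EIF4ENIF1 is filled at 22h against 0h only.

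ZAR1 (zygote arrest 1, ENSSSCG00000008824) fell in 2 steps. Here and below, coordinates are those of the gene in Sscrofa11.1, and exons are those of its longest annotated transcript, which may end inside these bounds. ZAR1 lies on chromosome 8 from 38386520 to 38391618 on the plus strand and has 4 exons. Its FPKM at 0h was 101.07, 91.5, 144.13 and 224.47 in replicates 1 to 4. At 22h it was 41.33, 12.44, 20.93 and 20.81, and at 46h it was 0.5, 1.16, 0.51 and 0.64. Every 22h library lay under every 0h library, and every 46h library under every 22h library. The mean level fell from 140 ± 60.6 to 23.9 ± 12.3 and then to 0.703 ± 0.312 FPKM (SD, n = 4), so that it was 5.88-fold lower at 22h than at 0h, 34.0-fold lower at 46h than at 22h and 199.7-fold lower at 46h than at 0h. The 46h values, apart from 1.16 in replicate 2, lie in the range in which ACTB, an actin gene, is listed (0 to 0.70 FPKM). The exact size of the ZAR1 folds to 46h is therefore uncertain. On the log2(FPKM + 1) scale, on which changes of low values are understated, the fold change was -2.54 ± 0.33 (SE, limma adjusted p = 8.48e-05), -3.76 ± 0.33 (3.71e-07) and -6.30 ± 0.33 (9.97e-10). Without 0h replicate 4 it was -2.28 for 22h and -6.04 for 46h, each against 0h. Among all identifiers ZAR1 moved from rank 589 at 0h to 1919 at 22h and 6542 at 46h.

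ZAR1L (ENSSSCG00000034291), with 4 exons on chromosome 11 from 8795478 to 8805876 on the minus strand, stayed among the most abundant transcripts. Its rank among the identifiers was 127 at 0h, 77 at 22h and 116 at 46h. In replicates 1 to 4 the FPKM was 962.86, 984.22, 700.03 and 439.22 at 0h, 818.8, 1146.23, 2150.5 and 1417.48 at 22h, and 611.8, 773.64, 1144.3 and 808.88 at 46h. The stages overlapped in all 3 comparisons, and 22h replicate 3 was the highest library of all. The log2 fold change was 0.82 ± 0.31 at 22h against 0h (SE, limma adjusted p = 0.0593), -0.68 ± 0.31 at 46h against 22h (0.0892) and 0.15 ± 0.31 at 46h against 0h (0.703), none of which passed. The call at 22h was close to its threshold and depended on single libraries and on the scaling. Without 22h replicate 1 the log2 fold change was 1.05 at 22h against 0h (limma adjusted p = 0.0203) and -0.90 at 46h against 22h (0.0299), and both passed. Without 0h replicate 2 the former was 0.96 (0.0463). ZAR1L was also called higher at 22h with quantile normalization (0.77, limma adjusted p = 0.0355) and with TPM that leaves out mitochondrially encoded genes (0.91, 0.048). Other alternatives moved it away from a call. The value at 22h against 0h was 0.576 without 0h replicate 4 (limma adjusted p = 0.129) and 0.581 without 22h replicate 3 (0.17). Both were under the fold threshold. With no filter on low values the adjusted p by limma was 0.141.

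The share of ZAR1 within this pair of relatives was lower at each later stage. ZAR1 made up 9.50%, 8.51%, 17.1% and 33.8% of the summed ZAR1 and ZAR1L FPKM in the 0h libraries. At 22h the share was 4.81%, 1.07%, 0.964% and 1.45%, and at 46h 0.0817%, 0.15%, 0.0446% and 0.0791%. No library of a later stage reached the lowest share of the stage before. The difference log2(ZAR1 + 1) minus log2(ZAR1L + 1) in each library averaged -2.47 ± 1.12 (SD, n = 4) at 0h, -5.83 ± 1.07 at 22h and -8.92 ± 0.47 at 46h. Its change between stages was -3.36, -3.09 and -6.45, each with p = 0.0286 in an exact two-sided permutation test of 4 against 4 libraries, the smallest p this design allows. In all, 9 pairs of a measured gene with a relative were compared over 3 comparisons, which makes 27 tests. None had an adjusted p under 0.05, 9 had an unadjusted p under 0.05, and the smallest adjusted p was 0.0857, which is the value for the ZAR1 pair.

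**Figure D3:**
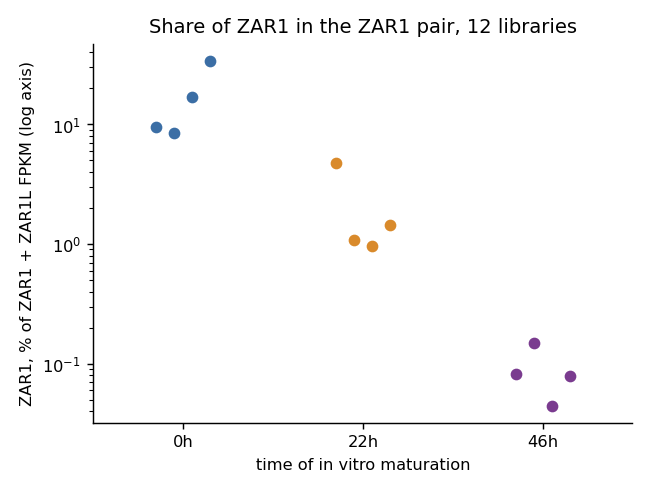
ZAR1 as a percentage of the summed ZAR1 and ZAR1L FPKM (vertical axis, logarithmic) in each of the 12 libraries by time of in vitro maturation; each point is a library. The share lies between 8.51% and 33.8% at 0h, between 0.964% and 4.81% at 22h and between 0.0446% and 0.15% at 46h, without overlap.

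YBX2 (ENSSSCG00000017938), the cold-shock protein, fell at both steps from a lower level. It has 9 exons on chromosome 12 from 52635383 to 52642443 on the minus strand. The FPKM was 15.71, 8.4, 26.25 and 26.72 in the 0h libraries, 5.36, 0.47, 4.16 and 2.0 at 22h, and 0, 0.13, 0.45 and 0.24 at 46h. All libraries of a later stage were under those of the earlier one, although 0.45 in the highest 46h library came near 0.47 in the lowest 22h library. Means were 19.3 ± 8.85, 3.0 ± 2.18 and 0.205 ± 0.191 FPKM (SD, n = 4). The log2 fold change was -2.42 ± 0.42 at 22h against 0h (SE, limma adjusted p = 0.000695), -1.54 ± 0.42 at 46h against 22h (0.00736) and -3.96 ± 0.42 at 46h against 0h (1.31e-06). The added 1 FPKM sets much of the size of these values. On mean FPKM, YBX2 was 6.43-fold lower at 22h than at 0h, 14.6-fold lower at 46h than at 22h and 94-fold lower at 46h than at 0h, and with a pseudocount of 0.1 the log2 fold change was -2.93, -3.17 and -6.10 (limma adjusted p = 0.00552, 0.00125 and 1.97e-06). With the added 1 FPKM and without 0h replicate 4, the log2 fold change was -2.23 at 22h and -3.77 at 46h, each against 0h. The 46h mean rests largely on 0.45 FPKM in replicate 3, so the folds of means to 46h are larger without that library. These 46h values lie in the range in which ACTB, an actin gene, is listed (0 to 0.70 FPKM), so the exact size of those folds is uncertain.

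The relatives YBX1 and YBX3 of the same family are given beside YBX2. YBX1, the widely expressed Y-box protein, had means of 34.5 ± 17.2, 37.4 ± 5.44 and 28.4 ± 1.54 FPKM (SD, n = 4) at 0h, 22h and 46h and passed in no comparison. The difference between YBX2 and YBX1 on the log2 scale changed by -2.64 at 22h against 0h, -1.16 at 46h against 22h and -3.81 at 46h against 0h (exact permutation p = 0.0286, 0.0857 and 0.0286). YBX3, the third Y-box gene, had means of 16.6 ± 10.2, 4.21 ± 2.20 and 0.163 ± 0.0386 FPKM in stage order and fell at both steps. Its log2 fold change was -1.67 ± 0.35, -2.08 ± 0.35 and -3.75 ± 0.35 (SE, limma adjusted p = 0.00253, 0.000205 and 3.37e-07), and with a pseudocount of 0.1 it was -1.89, -3.92 and -5.81. The difference between YBX2 and YBX3 changed by -0.75, 0.54 and -0.21, with exact permutation p of 0.0571, 0.0857 and 0.343.

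EIF4ENIF1 (ENSSSCG00000010030), the binding partner that keeps the cap-binding protein in repressed particles, was the only tested member called higher at 22h against 0h. ZAR1L (log2 fold change 0.82) and PABPC1L (0.58) were also higher there on average but did not pass. EIF4ENIF1 has 19 exons on chromosome 14 from 48156835 to 48204701 on the minus strand. FPKM was 109.44, 66.37, 95.82 and 74.22 at 0h, 139.39, 126.11, 145.42 and 125.47 at 22h, and 107.91, 84.16, 141.49 and 86.23 at 46h. Every 22h library was above every 0h library, and the 46h libraries overlapped both. The log2 fold change was 0.65 ± 0.20 at 22h against 0h, which is 1.57-fold (SE, limma adjusted p = 0.0238), -0.38 ± 0.20 at 46h against 22h (0.134) and 0.27 ± 0.20 at 46h against 0h (0.254). The rise at 22h lost its call without 0h replicate 2 (0.54, limma adjusted p = 0.0697) and without 22h replicate 3 (0.61, 0.0557). When the values were rescaled by median-of-ratios or by quantile normalization, the 46h level was also called higher than the 0h level, at 0.60 and 0.66 (limma adjusted p = 0.0182 and 0.00702).

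EIF4E1B (ENSSSCG00000014052), with 7 exons on chromosome 2 from 81277086 to 81281668 on the minus strand, was low and passed in no comparison of the fit over all 12 libraries. Its FPKM was 1.62, 0.66, 2.42 and 7.01 at 0h, 2.26, 1.75, 2.17 and 0.99 at 22h, and 0.99, 0.87, 1.16 and 0.33 at 46h. The stages overlapped, and 0h replicate 4 was far above the other 0h libraries. The log2 fold change was -0.27 ± 0.36 at 22h against 0h (SE, limma adjusted p = 0.603), -0.60 ± 0.36 at 46h against 22h (0.191) and -0.87 ± 0.36 at 46h against 0h (0.0509). Without 0h replicate 4 the first value turned to 0.16 and the last was -0.44 (limma adjusted p = 0.141), whereas without 0h replicate 1 or 2 the last was -0.98 or -1.20 and passed (0.0486 and 0.00585). EIF4E1B was also called lower at 46h against 0h with TPM (-1.01, limma adjusted p = 0.0357), and at 46h against 22h when those 2 stages alone were fitted (-0.60, 0.0278).

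The other cap-binding proteins were higher than EIF4E1B at 22h and 46h. EIF4E, the main cap-binding initiation factor, had means of 40.1 ± 13.0, 36.1 ± 9.75 and 19.2 ± 2.82 FPKM (SD, n = 4) and fell at 46h, with a log2 fold change of -0.98 ± 0.26 against 0h (SE, limma adjusted p = 0.00402), a call that was lost with median-of-ratios scaling (-0.66, 0.06) and quantile normalization (-0.40, 0.187). EIF4E2, a cap-binding protein linked to repression, went from 10.7 ± 1.66 to 4.0 ± 1.14 and 2.13 ± 0.529 FPKM, with -1.25 ± 0.20 at 22h and -1.91 ± 0.20 at 46h against 0h (0.000357 and 9.97e-07). EIF4E3 went the other way, from 2.5 ± 0.395 to 5.21 ± 0.443 and 6.17 ± 0.897 FPKM, with 0.83 ± 0.15 and 1.03 ± 0.15 (0.000856 and 2.86e-05). The difference between EIF4E1B and EIF4E3 changed by -1.90 at 46h against 0h (exact permutation p = 0.0286), and the differences to EIF4E and EIF4E2 had exact permutation p of 0.0571 or more.

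PABPC1L (ENSSSCG00000007382), with 15 exons on chromosome 17 from 47321259 to 47351905 on the plus strand, was highest on average at 22h. Its FPKM was 3.19, 2.71, 2.99 and 3.97 at 0h, 5.2, 3.97, 7.56 and 4.91 at 22h, and 2.93, 3.22, 5.97 and 3.88 at 46h. The lowest 22h library equalled the highest 0h library at 3.97 FPKM. Between 0h and 22h the log2 fold change was 0.58 ± 0.21 (SE, limma adjusted p = 0.0468), so it met the threshold on p but stayed just under the fold change of 1.5. It was -0.37 ± 0.21 at 46h against 22h (0.165) and 0.22 ± 0.21 at 46h against 0h (0.382). The call at 22h was made without 0h replicate 4 (0.67, limma adjusted p = 0.0289) and without 22h replicate 2 (0.70, 0.0355), and also with quantile normalization (0.76, 0.00503), with TPM that leaves out mitochondrially encoded genes (0.69, 0.0279) and with a pseudocount of 0.1 (0.71, 0.0478). Other alternatives moved PABPC1L away from a call at 22h. Each other fit that left out a library of 0h or 22h missed the threshold on p. Without 22h replicate 3 the log2 fold change was 0.44 (limma adjusted p = 0.134). The threshold on p was also missed with TPM, with no filter on low values and with those stages alone in the fit. Quantile normalization also called PABPC1L higher at 46h than at 0h (0.90, 0.000433). PABPC4, a relative found on the tail in many tissues, had means of 22.1 ± 4.30, 34.8 ± 3.30 and 23.8 ± 2.71 FPKM (SD, n = 4) and was higher at 22h than at 0h by 0.65 ± 0.17 (0.00938), which fell under the fold threshold without 0h replicate 2 (0.52). The difference between PABPC1L and PABPC4 changed by -0.06, 0.17 and 0.10 (exact permutation p = 0.771, 0.486 and 0.514). PABPC1 was listed at 0 to 0.77 FPKM, and since reads of near-identical copies may have been split or dropped, that listing is uncertain.

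LSM14B (ENSSSCG00000026052), with 10 exons on chromosome 17 from 61553953 to 61566504 on the plus strand, was listed near 0 in every library. Its FPKM was 0, 0.11, 0.11 and 0.33 at 0h, 0.05, 0.18, 0.26 and 0 at 22h, and 0, 0.08, 0 and 0 at 46h. The stages overlapped, with exact permutation p of 0.971, 0.257 and 0.143 in the 3 comparisons. ACTB, an actin gene that cells in general use, was also listed at 0 to 0.70 FPKM, with 0 in 2 libraries, so a listing near 0 in these files may be a failed estimate and is not read as absence. The table that pairs names with identifiers may also come from another annotation release than the files, so it is uncertain whether this listing is that of LSM14B. Its relative LSM14A, another protein of the repression particle, was at 4.24 ± 1.29 FPKM at 0h, 7.07 ± 1.12 at 22h and 1.19 ± 0.342 at 46h (SD, n = 4). The log2 fold change of LSM14A against 0h was 0.65 ± 0.20 at 22h and -1.24 ± 0.20 at 46h (SE, limma adjusted p = 0.0232 and 8.54e-05). The first call was lost without 0h replicate 2 (0.47, 0.0644), 22h replicate 1 (0.58, 0.0553) or 22h replicate 4 (0.60, 0.0633), and also with no filter on low values (0.65, 0.0522) or with the 2 stages alone in the fit (0.65, 0.0508), and quantile normalization took the second under the fold threshold (-0.55). As LSM14B was near 0 throughout, the change of the difference between them (-0.67, 1.75 and 1.08, exact permutation p = 0.0286 each) follows LSM14A. PATL1, the relative of PATL2 and a link to decapping, was higher at both later stages, with 5.24 ± 0.898, 9.76 ± 1.18 and 10.4 ± 1.61 FPKM and log2 fold changes of 0.79 ± 0.16 and 0.87 ± 0.16 against 0h (limma adjusted p = 0.00247 and 0.00032).

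ZAR1 and YBX2 followed each other across the libraries, with r = 0.946 for log2(FPKM + 1) over the 12 libraries, and ZAR1 and ZAR1L did not (r = -0.118). EIF4ENIF1 and PABPC1L had r = 0.736. These coefficients are descriptions, since the 12 points share the stages, the libraries and their scaling. Of 6111 other named genes tested, those most like ZAR1 were UQCRQ, COPS9 and MRPS33 (each r = 0.996). UQCRQ, a subunit of respiratory complex III, had a mean of 288.9 FPKM in the 0h and 23.3 FPKM in the 46h libraries. Those most like YBX2 were PPM1G (r = 0.994), QTRT1 (0.992) and PPP1R13B (0.989). The genes most like ZAR1L were PRUNE1 (0.942), ARPC2 (0.919) and NUP85 (0.897), the last a nuclear pore subunit with means of 90.6, 211 and 117.7 FPKM at 0h, 22h and 46h. For EIF4ENIF1 they were ZNFX1 (0.922), KIF20A (0.914) and MTMR12 (0.907), for EIF4E1B PSIP1 (0.960), ILRUN (0.957) and PHF8 (0.951), and for PABPC1L HSF2BP (0.931), SHMT1 (0.929) and USP22 (0.926).

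A list of 59 other genes of mRNA binding and repression placed these values in their pathway. Of them 56 had an identifier and 39 were tested. At 22h against 0h 7 of the 39 were higher and 6 lower, at 46h against 22h 2 were higher and 13 lower, and at 46h against 0h 4 were higher and 15 lower. These counts are 33.3%, 38.5% and 48.7% of the list, beside 26.7%, 42.4% and 55.9% of all genes tested. The median log2 fold change of the list was 0.16, -0.50 and -0.22, and the members' relatives described above are part of it. Among 4 tested cold-shock proteins 2 were lower at 46h than at 0h, and of 3 tested cap-binding proteins 1 was higher and 2 were lower. The share of all genes tested in that comparison was 16.8% higher and 39.1% lower, and with so few genes a group nothing is read from these counts.

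Among genes of the repression complex and of decapping, 8 of 9 were tested, and at 46h against 0h 3 were higher and 4 lower, which is 87.5% of those tested beside 55.9% of all genes. DCP1A, a decapping activator, was at 24.8 ± 13.3 FPKM at 0h, 18.7 ± 8.47 at 22h and 49.2 ± 9.88 at 46h, and the log2 fold change from 22h to 46h was 1.45 ± 0.42 (SE, limma adjusted p = 0.0102). Its 0h libraries ranged from 8.67 to 36.6 FPKM, and the call at 46h against 0h (1.12 ± 0.42, 0.0296) was lost in 5 of the 8 fits that left out a library of either stage, with 0.71 and an adjusted p of 0.0873 by limma without 0h replicate 4, the lowest value. It was also lost with TPM (1.03, 0.0602) and with no filter on low values (1.12, 0.076). DDX6, the helicase of the repression particle, went from 6.47 ± 1.11 to 3.39 ± 0.725 and 2.88 ± 0.396 FPKM, with -0.77 ± 0.17 at 22h and -0.94 ± 0.17 at 46h against 0h (0.00308 and 0.000183), the latter not called with quantile normalization (-0.25, 0.236). XRN1, the exonuclease that follows decapping, was at 1.87 ± 0.383, 2.15 ± 0.502 and 3.86 ± 1.21 FPKM and was higher at 46h than at 0h by 0.74 ± 0.19 (0.00346).

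Of 4 tested poly(A)-binding proteins and partners 2 were lower at 46h than at 0h, beside 39.1% of all genes, and the largest fall in the limma fit of the list belonged to PAIP2, a protein that displaces the poly(A)-binding protein from the tail. Its FPKM was 404.7, 435.13, 389.58 and 223.48 at 0h, 264.6, 285.03, 322.55 and 315.12 at 22h, and 2.35, 2.07, 1.78 and 1.13 at 46h. The 22h libraries overlapped those of 0h, and the 46h libraries were all far under both. The log2 fold change was -0.25 ± 0.21 at 22h against 0h (SE, limma adjusted p = 0.40), -6.73 ± 0.21 at 46h against 22h (2.08e-11) and -6.98 ± 0.21 at 46h against 0h (9.79e-12). PAIP2 and ZAR1 thus ended at low levels alike, but at 22h ZAR1 had fallen and PAIP2 did not pass, and the difference between these 2 changes was not tested. PAIP1, which helps the poly(A)-binding protein in translation, was at 1009 ± 319.6, 999 ± 73.0 and 942 ± 112 FPKM and passed in no comparison.

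Of 6 tested regulators that bind the 3′ untranslated region 2 were lower at 46h than at 0h, beside 39.1% of all genes. CPEB1, which binds the cytoplasmic polyadenylation element, had means of 26.6 ± 6.39, 43.8 ± 7.86 and 37.4 ± 4.64 FPKM in stage order and was higher at 22h by 0.71 ± 0.19 (SE, limma adjusted p = 0.0129). At 46h against 0h CPEB1 stayed under the fold threshold (0.50 ± 0.19, 0.0374), but it was called higher with median-of-ratios scaling (0.81, 0.0034), quantile normalization (1.03, 0.000308), TPM without mitochondrially encoded genes (0.59, 0.0235) and without 0h replicate 1 (0.62, 0.0147). Among 14 tested granule and particle proteins 3 were lower at 46h than at 0h, which is 21.4% beside 39.1% of all genes. RBPMS2, an RNA-binding protein, was at 6, 3.69, 17.6 and 114.52 FPKM at 0h, 38.4, 10.38, 5.13 and 3.03 at 22h, and 0.12, 0.23, 0.2 and 0.05 at 46h. Its spread between libraries was wide before 46h, and every 46h library was under every earlier one (log2 fold change -3.83 ± 0.83 against 0h, limma adjusted p = 0.00107). Without 0h replicate 4 that value was -2.89 (0.000976), and with a pseudocount of 0.1 it was -5.94 (limma adjusted p = 5.5e-05). ELAVL1, a stabilizing RNA-binding protein, was higher at 22h than at 0h by 0.84 ± 0.17 (0.00215), with 47.5 ± 8.36 and 85.7 ± 13.0 FPKM. At 46h against 0h it stayed under the fold threshold (0.48 ± 0.17, 0.0248) and was called higher with median-of-ratios scaling (0.80, 0.00307) and quantile normalization (0.95, 0.000199).

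**Figure D4:**
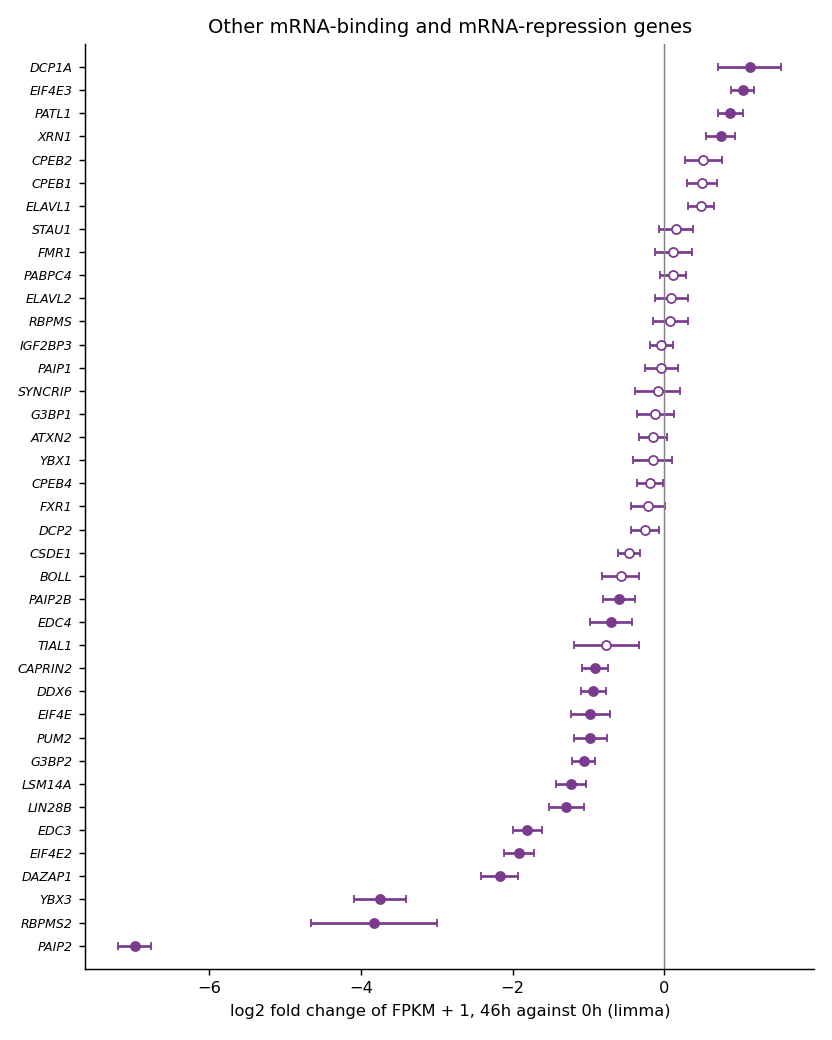
Log2 fold change of FPKM + 1 at 46h against 0h (horizontal axis, limma) of 39 other genes of mRNA binding and repression, in order of the change; bars are standard errors and filled points passed both thresholds. Filled points are 4 on the right, led by DCP1A at 1.12, and 15 on the left, where PAIP2 lies at -6.98.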

How the data were processed

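RNA-seq of pooled porcine oocytes was analysed in 12 libraries. As deposited, the values are FPKM per Ensembl gene identifier, which the authors made with STAR alignment to Sscrofa11 and RSEM. No counts were used, so depth is unknown and no counting interval is given. Identifiers were named from a gene name table, which named 15029 of 31908. The log2(FPKM + 1) values of the 7013 genes that averaged 1 FPKM or more were fitted with limma 3.58.1 in R 4.3.3 (trend, stage as the only factor, two-sided, Benjamini-Hochberg over all genes tested). LSM14B and the pairs of relatives were compared by exact two-sided permutation over 70 arrangements. Sequences are from RefSeq's annotation of Sscrofa11.1, and the files carry no coordinates. Named genes are all members, their relatives, CPEB1 and DDX6, in each comparison up to 3 of the largest rises and falls of the list past the thresholds, and the 3 genes most like each member. PAIP1, ACTB and the single cell type markers were named after their values were seen. The members and lists were chosen with earlier results of these data known. Alternatives were pseudocount, filter, scaling, fit, thresholds, replicate block and each library left out.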

Additional observations from a re-analysis of the deposited data

Results flagged for a closer look

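A single value stood apart from the other libraries of its group. LSM14B was listed at 0.08 FPKM in 46h replicate 2 and at 0 in the other 3 libraries of 46h. A total of 24 groups of 4 libraries were looked at. The rate of about 1 in 20 groups that chance sets apart holds for continuous values, and where the other 3 values are 0, any value above 0 stands apart whatever its size. The value is near 0, at a level at which ACTB is listed too.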

How the results depend on the processing

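ZAR1 and YBX2 passed as lower in all 3 comparisons under every alternative run, and the adjusted p of YBX2 at 46h against 22h came close to the threshold with quantile normalization (limma, 0.043). Of 354 results of single members under alternatives, 329 kept direction and call, 18 gained a call, 3 lost it (EIF4ENIF1 at 22h against 0h) and 4 turned sign without a call. The number of members past the thresholds at 22h against 0h went from 3 to 5 with quantile normalization and to 5 with TPM without the mitochondrially encoded genes, and at 46h against 0h from 2 to 4 with quantile normalization. With each library left out it was 2 to 4, 2 to 3 and 2 to 3 in the 3 comparisons. Scaling moved the median change over all genes at 46h against 0h (log2) from -0.25 to 0.00 (median-of-ratios), 0.37 (quantile) and -0.35 (TPM), and the share of higher calls from 30.1% to 44.1%, 61.7% and 25.6%. At 46h against 22h that share went from 23.3% to 42.2% and 59.5% with the first 2 scalings, and at 22h against 0h from 29.4% to 48.2% with quantile normalization and 39.5% with TPM without mitochondrially encoded genes. The fold change threshold of 2 left 871, 1736 and 2687 genes called, against 1873, 2975 and 3922. The replicate numbers were not taken to pair the samples. The deviations of same-numbered libraries had r over 0.1 in 3 of 12 pairs (-0.466 to 0.381), all 3 between 22h and 46h (0.381, 0.211 and 0.127, and 0.0088 in the other pair), where the same 3 were best matched by their own number, a hint from the data, not the labels. With the replicate block 1801, 2933 and 3894 genes were called, 3, 2 and 2 members passed, and no call of a member changed, while DCP1A lost its call at 46h against 0h (1.12, limma adjusted p = 0.0506). A mean of at least 5 FPKM leaves out EIF4E1B and PABPC1L.

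Values of single genes that turned sign, none called under the alternative, were these on the log2 scale, and the cause was not tested. ZAR1L at 46h against 0h was -0.10 without 0h replicate 4 and -0.017 without 46h replicate 3, EIF4E1B at 22h against 0h 0.16 without 0h replicate 4, and RBPMS2 there 0.27. With quantile normalization, PABPC1L at 46h against 22h was 0.14, CPEB1 0.22, DDX6 0.35 and YBX1 0.089, and YBX1 at 46h against 0h 0.37. With median-of-ratios scaling CPEB1 was 0.10 and DDX6 0.078 at 46h against 22h, and YBX1 0.17 at 46h against 0h, where it was 0.14 without 0h replicate 4. PATL1 at 46h against 22h was -0.0029 with TPM. Without 22h replicate 1 DCP1A was 0.011 and EIF4E 0.085 at 22h against 0h, and without 0h replicate 2 EIF4E was 0.046 there and PABPC4 -0.012 at 46h against 0h. Over the fits that left out 1 library, the range was -0.10 to 0.29 for ZAR1L at 46h against 0h, and at 22h against 0h it was -0.60 to 0.16 for EIF4E1B, -0.74 to 0.011 for DCP1A, -0.34 to 0.085 for EIF4E and -1.31 to 0.27 for RBPMS2. At 46h against 0h it was -0.012 to 0.21 for PABPC4 and -0.37 to 0.14 for YBX1. Differences between relatives, none called, also turned sign in such fits, which give them no test. For EIF4E1B to EIF4E the range was -0.65 to 0.50 at 22h against 0h, -0.016 to 0.54 at 46h against 22h and -0.41 to 0.74 at 46h against 0h, and for EIF4E1B to EIF4E2 -0.078 to 0.26 at 46h against 22h. For PABPC1L it was -0.13 to 0.15 to PABPC1 at 46h against 22h, and to PABPC4 -0.19 to 0.036 at 22h against 0h and -0.0047 to 0.19 at 46h against 0h. With a pseudocount of 0.1 the difference of EIF4E1B to EIF4E changed by -0.19 at 46h against 22h and -0.33 at 46h against 0h and that to EIF4E2 by -0.19 at 46h against 22h, and the difference of PABPC1L to PABPC1 changed by -0.67 and 0.96 in the first 2 comparisons and that to PABPC4 by 0.039 at 22h against 0h.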
